A study of Rattus norvegicus with 8 samples.

Results

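Oxidative phosphorylation subunits are the proteins of the respiratory chain and the ATP synthase in the inner mitochondrial membrane. Their mRNAs were compared between livers of HP diet-fed rats and of control diet-fed rats. Genes were taken by symbol: those of complex I (Nduf a, b, c, s and v genes with a number), complex II (Sdha to Sdhd), complex III (Uqcr genes), complex IV (Cox4 to Cox8 genes) and complex V (Atp5 genes). Of 14217 genes named alone by at least 1 probe set, 79 matched, and 24 of these were measured, against 2808 measured genes in all. A gene counted as measured when 1 of its probe sets spanned at least 0.05 (log2) from the lowest to the highest of the 8 arrays, and the probe set with the highest mean among those was used. All 8 animals were male Wistar rats labelled as 8 weeks old, housed singly and first fed the control diet for 7 days. The HP diet held 1.2% phosphorus and the control diet 0.3%, both based on the AIN-93G diet, and each was fed for 24 days. There were 4 HP arrays and 4 control arrays, each from the liver RNA of 1 rat, out of 5 rats fed each diet. Rats are called by diet and replicate number, which orders nothing.

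In this system, complexes I and II pass electrons from NADH and succinate to ubiquinone, complex III passes them to cytochrome c, and complex IV passes them to oxygen. Complexes I, III and IV move protons out of the matrix, and complex V, the ATP synthase, lets protons back in and makes ATP from ADP and inorganic phosphate. Most subunits are encoded in the nucleus and a small number in mitochondrial DNA, and only nuclear genes matched the symbols used. Hepatocytes are rich in mitochondria and use the ATP for urea synthesis, gluconeogenesis and lipid metabolism.

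The largest differences lay in complex I, which held 16 of the 24 measured genes. Ndufa11, Ndufa9, Ndufs6, Ndufa3 and Ndufa1 had 4 HP values that all lay above the 4 control values, as had Cox6c of complex IV. Sequence around the start is shown for the 5 complex I genes. The nuclear respiratory factors NRF1 and NRF2 (GABP, an ETS family factor), the estrogen-related receptors and YY1 are known to bind promoters of such genes. Each line is 300 bases of RefSeq (GRCr8), read 5′ to 3′ on the gene's strand, 250 before and 50 after the start. Capitals mark the NRF1 letters (GCGCA and GCGC with any 1 base between them), the ETS letters (CCGGAAG) or the YY1 letters (AAGATGGC), or their reverse complements.
Ndufa11: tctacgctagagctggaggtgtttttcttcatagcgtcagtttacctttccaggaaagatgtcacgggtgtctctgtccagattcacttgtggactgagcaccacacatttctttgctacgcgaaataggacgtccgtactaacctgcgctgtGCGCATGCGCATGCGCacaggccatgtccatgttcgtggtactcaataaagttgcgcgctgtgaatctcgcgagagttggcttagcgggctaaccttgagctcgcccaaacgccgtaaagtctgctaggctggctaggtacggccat
Ndufa9: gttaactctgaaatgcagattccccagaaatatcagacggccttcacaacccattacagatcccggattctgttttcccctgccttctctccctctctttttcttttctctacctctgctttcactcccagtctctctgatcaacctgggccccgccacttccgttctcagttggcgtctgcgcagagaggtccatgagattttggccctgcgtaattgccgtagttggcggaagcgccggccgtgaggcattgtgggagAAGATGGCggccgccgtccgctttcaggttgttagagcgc
Ndufs6: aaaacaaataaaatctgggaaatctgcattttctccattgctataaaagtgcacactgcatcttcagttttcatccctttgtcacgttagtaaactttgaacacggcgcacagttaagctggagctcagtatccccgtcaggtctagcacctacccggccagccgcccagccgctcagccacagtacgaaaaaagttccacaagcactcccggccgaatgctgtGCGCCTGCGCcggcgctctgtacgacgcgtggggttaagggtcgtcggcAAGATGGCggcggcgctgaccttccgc
Ndufa3: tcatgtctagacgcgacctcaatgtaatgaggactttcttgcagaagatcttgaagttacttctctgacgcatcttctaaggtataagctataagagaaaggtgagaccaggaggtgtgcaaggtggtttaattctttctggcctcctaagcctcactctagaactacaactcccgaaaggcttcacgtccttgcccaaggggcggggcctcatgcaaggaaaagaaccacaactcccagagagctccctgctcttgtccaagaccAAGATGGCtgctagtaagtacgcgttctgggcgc
Ndufa1: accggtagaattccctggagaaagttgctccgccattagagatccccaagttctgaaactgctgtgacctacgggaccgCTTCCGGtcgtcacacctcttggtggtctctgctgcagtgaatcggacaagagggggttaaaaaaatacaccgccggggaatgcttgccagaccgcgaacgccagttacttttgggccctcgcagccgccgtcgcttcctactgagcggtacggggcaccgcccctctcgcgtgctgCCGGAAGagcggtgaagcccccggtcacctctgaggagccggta

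The Ndufa11 window lies at chr9:1637364-1637663 on the plus strand, and 2 copies of the NRF1 letters begin at bases 154 and 160, counted from the window's first base, and overlap each other. The Ndufa9 window, chr4:161374121-161374420 on the minus strand, holds the YY1 letters at base 261. The Ndufs6 window, chr1:31797150-31797449 on the plus strand, holds the NRF1 letters at base 225 and the YY1 letters at base 274. The Ndufa3 window, chr1:74515509-74515808 on the minus strand, holds the YY1 letters at base 267. The Ndufa1 window, chrX:121293506-121293805 on the minus strand, holds the ETS letters at bases 80 and 257. No window for Cox6c was used. Of the 24 members, 21 had a window in the RefSeq table, and 71 of the 79 matching genes.

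These letters were common in the family whether or not a gene was measured. The NRF1 letters stood in 13 of 71 windows of matching genes (18.3%) and in 4 of 21 windows of members (19.0%), against 7.83% of 2528 windows of all genes measured and 4.25% of all 33469 windows. The ETS letters stood in 20 of 71 (28.2%) and in 6 of 21 (28.6%), against 12.8% of genes measured and 8.75% of all. The YY1 letters stood in 16 of 71 (22.5%) and in 3 of 21 (14.3%), against 4.43% of genes measured and 3.17% of all. The letters TCAAGGTCA, for the estrogen-related receptors, stood in 2 of 71 (2.82%) and in 0 of 21, against 0.158% of genes measured and 0.433% of all. Both strands were searched, and the median GC content was 58.3% in windows of members, 60.7% in those of genes measured and 51.7% in all windows. These are matches of letters, not measured binding.

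How much of each complex could be followed depended on the deposited values. Each deposited log2 value is the authors' FARMS summary of several probes. FARMS is a factor analysis, and it leaves a probe set almost constant when its probes share no signal across arrays. Of the matching genes, 16 of 35 were measured in complex I, 1 of 4 in complex II, 1 of 7 in complex III, 2 of 17 in complex IV and 4 of 16 in complex V. The other 55 were near constant, 40 of them at a mean over 10 and 8 at a mean under 7. Among matching genes with a mean over 10, 37.5% of 64 were measured, against 67.8% of all 1486 probe sets with a mean over 10. A near-constant value does not show that an mRNA was alike in the diets, and every count and median given for members is over the measured genes only.

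**Figure D1:**
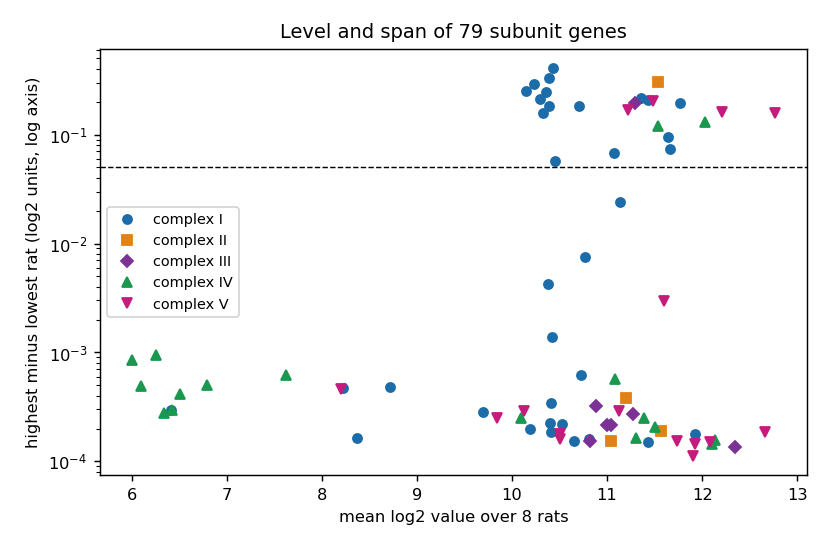
Span (log2, highest minus lowest of the 8 arrays, log axis) against mean log2 value for the probe sets of the 79 matching genes, coloured by complex, with the minimum of 0.05 as a dashed line. The 24 measured members lie above the line, and 40 of the 55 near-constant genes have a mean over 10.

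Near the minimum stood Ndufv3, with a span of 0.0578, and Ndufv2, with 0.0683, both of the NADH-binding end of complex I. Next came Ndufa1, whose groups did not overlap, with a span of 0.0734. Just under the minimum stood Ndufa6, with a span of 0.0242 and means of 11.14 in HP and 11.12 in control rats. Ndufb6 followed, with a span of 0.00755. Among bright genes with no span were Atp5mc3, a gene for the proton-carrying ring subunit of complex V, at 12.66, and Uqcrq of complex III, at 12.35. The symbols also took in Cox6c-ps1, a pseudogene, Atp5if1, an inhibitor of the ATP synthase, and Ndufa4, now counted with complex IV, and none of these was measured. Another 7 probe sets carry a matching symbol beside a different one and were not used.

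Several complex IV subunits have tissue isoforms. The forms used in liver were listed at 11.09 for Cox4i1, 11.39 for Cox6a1 and 12.10 for Cox8a. The forms known from muscle, heart or lung were listed at 6.42 for Cox4i2, 6.34 for Cox6a2, 6.51 for Cox7a1 and 6.002 for Cox8b, and the testis forms Cox6b2 and Cox7b2 at 6.09 and 6.26. Ndufa4l2, known as a hypoxia-induced gene, was listed at 6.41. All 10 were near constant, so none could be compared between diets, and levels of different probe sets cannot be set against each other. The 9 hepatocyte markers named on the array had means of 11.52 to 14.53.

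Across the 8 arrays the values of all probe sets ran from 5.35 to 14.53, and every array had a median of 6.65. Correlations between arrays, over the probe sets that spanned 0.05, were 0.968 to 0.992. The test across probe sets was limma, fitted over the 4155 probe sets that spanned 0.05, with Benjamini-Hochberg adjustment. No member passed an adjusted p under 0.05 (background 0% of probe sets in either direction). The smallest adjusted p was 0.298 among members and 0.156 among all probe sets tested. At an unadjusted p under 0.05, 5 of 24 members were higher on the HP diet and 0 lower, against a background of 5.37% of probe sets higher and 7.29% lower. After centring each array the 5 became 8, and all probe sets tested were split into 297 higher and 223 lower, against 223 and 303 without centring. Without HP rat 2 or HP rat 4 the 5 became 3, with 143 and 166 of the 4155 probe sets higher. Rank products, the study's method, called 3 members higher and 0 lower at an FDR under 0.05. Its background was 1.13% of all 31099 probe sets higher and 1.62% lower, or 8.45% and 12.1% of the probe sets that spanned 0.05. When only the probe sets that spanned 0.05 were ranked, it called 0 members, and it called 0 of them when any 1 HP rat was left out.

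The direction was mostly upward and the sizes were small. Of the 24 members, 20 had a higher mean in HP rats and 4 a lower one, and 43.5% of all probe sets tested had a higher mean. The median log2 difference between the diets (HP minus control) was 0.05 over members, a level 3.83% higher, and -0.02 over all probe sets tested. The groups did not overlap, with HP above, for 6 members, against 3.10% of probe sets tested, and for 0 with HP below, against 4.07%. Of these members, Ndufa1 and Cox6c spanned less than 0.05 in the control rats alone. They therefore counted as measured only through the HP rats. Without control rat 4 the 6 became 10, but leaving out a rat can only keep or raise this count. The median standard error was 0.0446 for members and 0.0921 for all probe sets tested. Since the liver is a mixture of cells, fewer cells of a type and less RNA per cell cannot be told apart in any of these values.

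**Figure D2:**
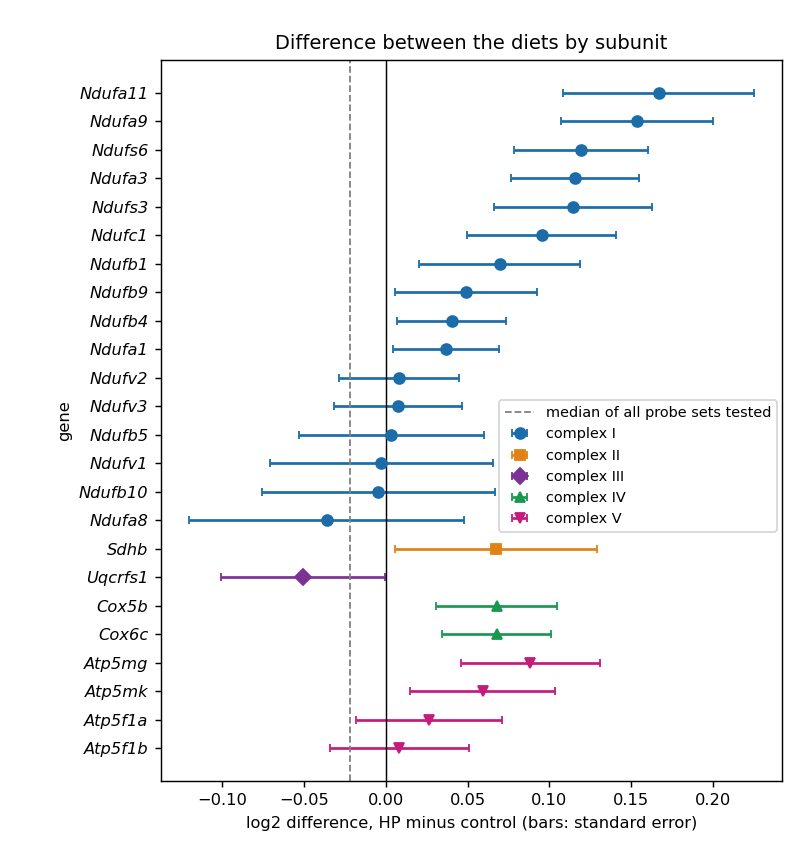
Log2 difference between the diets (HP minus control) for each of the 24 measured members, grouped by complex, with the standard error from limma as bars and the median of all probe sets tested as a dashed line. Ndufa11 has the highest difference, 0.17, and 4 members lie below 0.

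Complex I has a matrix arm, which takes electrons from NADH, and a membrane arm, which pumps protons. Over its 16 measured genes the median difference was 0.04, with 13 higher and 3 lower. The matrix arm had 6 measured genes and a median of 0.06, and the membrane arm had 10 and a median of 0.04. All 3 members called by rank products and all 5 with an unadjusted p under 0.05 were complex I genes, but complex I also held 16 of the 24 measured members. Medians in complexes II to V were 0.07, -0.05, 0.07 and 0.04, from 1, 1, 2 and 4 measured genes.

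In the matrix arm, Ndufa9, an accessory subunit at the junction of the arms, had log2 values of 10.36, 10.46, 10.42 and 10.50 in HP rats 1 to 4, against 10.31, 10.28, 10.25 and 10.28 in control rats 1 to 4. HP rat 1 lay nearest the control rats, and the groups did not overlap. The difference was 0.15 ± 0.05 (SE, n = 4 each; adjusted p = 0.298 by limma; FDR 0.0366 by rank products), a level 11.2% higher. Ndufs6, a zinc-binding accessory subunit, had log2 values of 10.41, 10.38, 10.36 and 10.40 in HP rats, against 10.25, 10.25, 10.26 and 10.31 in control rats. The HP rats lay close together, and control rat 4 stood above the other 3 control rats. Its difference was 0.12 ± 0.04 (adjusted p = 0.332 by limma; FDR 0.0491 by rank products).

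Ndufs3, a core subunit on the way to ubiquinone, had log2 values of 10.27, 10.40, 10.34 and 10.38 in HP rats, against 10.25, 10.29, 10.19 and 10.22 in control rats. HP rat 1 lay below control rat 2, so the groups overlapped, and the difference was 0.11 ± 0.05 (adjusted p = 0.384 by limma). Ndufv1, which binds NADH and flavin, had 10.05, 10.34, 10.30 and 10.24 in HP rats, against 10.25, 10.27, 10.26 and 10.16 in control rats. HP rat 1 was the lowest of all 8, and the difference of -0.00 ± 0.07 turned sign with the scaling of the arrays. Its iron-sulfur partner Ndufv2 and the accessory Ndufv3 each had a difference of 0.01, with standard errors of 0.04.

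In the membrane arm, Ndufa11, an accessory subunit, had log2 values of 10.43, 10.55, 10.36 and 10.55 in HP rats, against 10.22, 10.35, 10.33 and 10.32 in control rats. HP rats 2 and 4 were the highest and control rat 1 the lowest. The difference was 0.17 ± 0.06, a level 12.3% higher (adjusted p = 0.336 by limma; FDR 0.0275 by rank products). Ndufa3, another accessory subunit, had log2 values of 10.73, 10.77, 10.75 and 10.78 in HP rats, against 10.64, 10.67, 10.60 and 10.67 in control rats. Both groups were narrow and did not overlap, and the difference was 0.12 ± 0.04 (adjusted p = 0.332 by limma; FDR 0.0516 by rank products, just outside its threshold).

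Ndufa1, an accessory subunit encoded on the X chromosome, had log2 values of 11.67, 11.67, 11.65 and 11.71 in HP rats, against 11.64, 11.63, 11.64 and 11.64 in control rats. The groups did not overlap, but the difference was only 0.04 ± 0.03 (adjusted p = 0.625 by limma). Ndufb9, the measured complex I gene with the highest mean, had 11.74, 11.84, 11.78 and 11.79 in HP rats, against 11.75, 11.65, 11.77 and 11.79 in control rats, with overlap throughout. Of the other membrane arm genes, Ndufc1, Ndufb1 and Ndufb4 had differences of 0.10, 0.07 and 0.04, and Ndufb5 had 0.00. Ndufb10 and Ndufa8 had -0.00 and -0.04, and the sign of Ndufb10 turned with the scaling of the arrays. The highest control value of Ndufa8 was 10.63, in control rat 4, and the lowest was 10.23, in control rat 1, with the HP rats at 10.31 to 10.47.

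**Figure D3:**
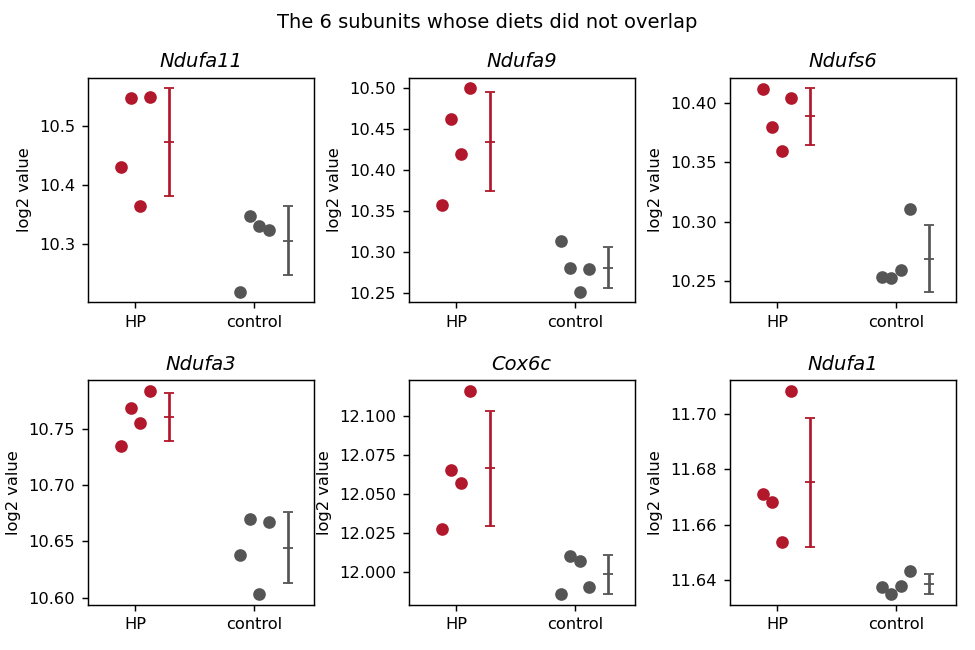
Log2 value in each rat for the 6 members whose groups did not overlap, HP rats left of control rats in each panel, with mean and SD; each panel has its own axis, which does not start at 0. Every HP point lies above every control point, by the widest gap between means for Ndufa11 (0.17) and the narrowest for Ndufa1 (0.04).

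In complexes II and III 1 gene each was measured, and the groups overlapped for both. Sdhb, the iron-sulfur subunit of succinate dehydrogenase, had log2 values of 11.49, 11.55, 11.60 and 11.65 in HP rats, against 11.54, 11.57, 11.57 and 11.34 in control rats. Control rat 4 lay far below the rest, and the difference of 0.07 ± 0.06 (adjusted p = 0.635 by limma) became 0.01 without that rat. Uqcrfs1, the Rieske iron-sulfur protein of complex III, had 11.32, 11.28, 11.26 and 11.23 in HP rats, against 11.31, 11.41, 11.36 and 11.22 in control rats. Its difference of -0.05 ± 0.05 (adjusted p = 0.669 by limma) was the lowest of the 24.

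In complex IV, both measured genes had a difference of 0.07. Cox6c had log2 values of 12.03, 12.07, 12.06 and 12.12 in HP rats, against 11.99, 12.01, 12.01 and 11.99 in control rats. The control rats lay within a narrow band below all HP rats, and the difference had a standard error of 0.03 (adjusted p = 0.425 by limma; FDR 0.0821 by rank products). Cox5b had 11.51, 11.61, 11.56 and 11.60 in HP rats, against 11.49, 11.50, 11.50 and 11.52 in control rats, where HP rat 1 lay among the control rats (adjusted p = 0.460 by limma).

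In complex V, all 4 measured genes had a higher mean in HP rats, with a median difference of 0.04 and no call by either test. Atp5mg, a subunit of the membrane part, had log2 values of 11.48, 11.53, 11.51 and 11.58 in HP rats, against 11.37, 11.48, 11.48 and 11.40 in control rats. HP rat 1 and control rats 2 and 3 lay close together, and the difference was 0.09 ± 0.04 (adjusted p = 0.416 by limma). Atp5mk, a small accessory subunit of the membrane part, had a difference of 0.06 ± 0.04, with HP rat 3 at 11.17, below 3 of the control rats. In the catalytic head, Atp5f1a, the alpha subunit, had a difference of 0.03 ± 0.04. Atp5f1b, the catalytic beta subunit and the measured complex V gene with the highest mean, had 12.70, 12.83, 12.79 and 12.75 in HP rats, against 12.76, 12.81, 12.80 and 12.67 in control rats. Its difference was 0.01 ± 0.04.

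The members did not move evenly among the HP rats. Relative to its mean over the 8 rats, a member was higher in HP rats 1 to 4 for 11, 22, 13 and 22 of 24 genes, and in control rats 1 to 4 for 4, 8, 12 and 8. The highest value was in HP rat 2 for 11 members and in HP rat 4 for 9, and the lowest was in control rat 1 for 9. Averaged over the 24 members, the value relative to each gene's mean was -0.01, 0.06, 0.00 and 0.06 in HP rats, against -0.05, -0.02, -0.01 and -0.03 in control rats. HP rats 2 and 4 lay highest and control rat 1 lowest, while HP rat 1 lay below control rat 3 and the groups overlapped. With any 1 rat left out, the median difference over members was 0.042 to 0.064. Over all 2808 genes measured the same average differed by -0.01 between the diets.

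**Figure D4:**
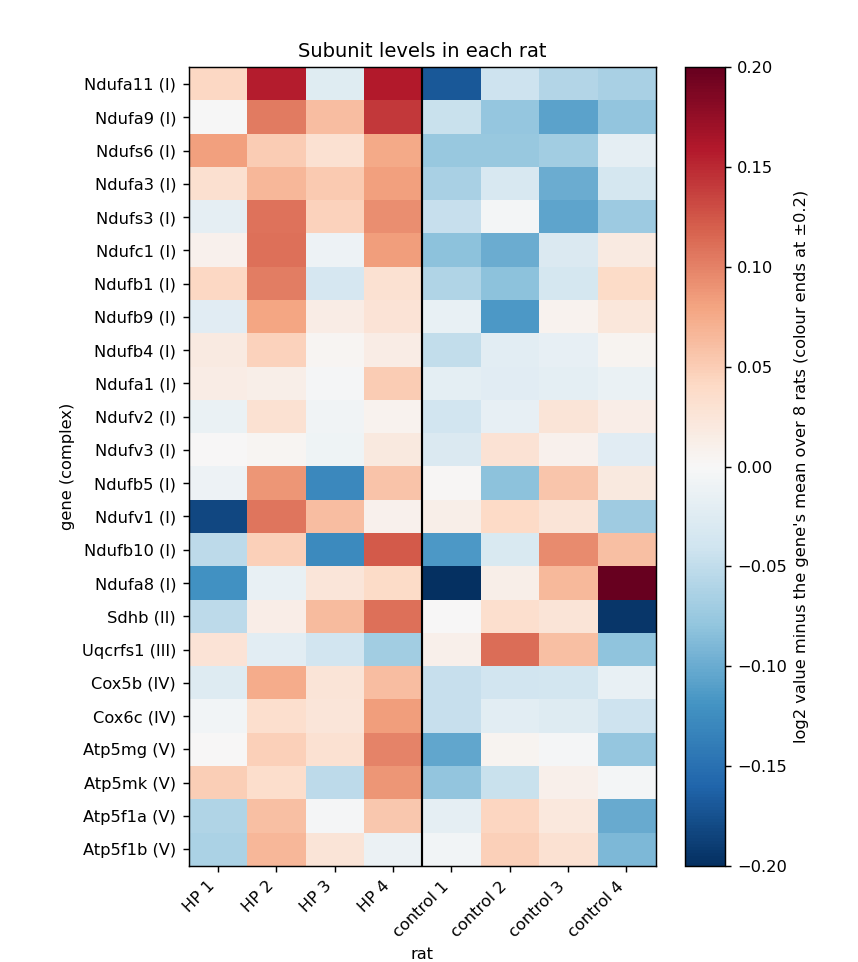
Log2 value of each of the 24 members in each rat minus that member's 8-rat mean (colour scale), HP rats left of control rats, rows grouped by complex. HP rats 2 and 4 are above the mean for 22 members each, and control rat 1 is above it for 4.

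By complex, the average for complex I was -0.01, 0.07, -0.00 and 0.06 in HP rats, against -0.06, -0.04, -0.02 and 0.00 in control rats. Complex IV, with 2 genes, was the only complex whose average did not overlap, at -0.02, 0.05, 0.03 and 0.07 in HP rats, against -0.05, -0.03, -0.03 and -0.03 in control rats. Both genes spanned less than 0.05 in the control rats alone and counted as measured only through the HP rats. No conclusion is drawn from this average. Among the HP rats, rats 2 and 4 were highest in complexes I, IV and V. They were also highest in the mitochondrial ribosomal protein genes, the citric acid cycle genes and the electron carriers outside the symbols used. In the cytosolic ribosomal protein genes and the proteasome subunits, HP rats 2 and 3 were highest.

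Measures of RNA integrity and of cell make-up were set beside the members, and the groups overlapped for each of the averages given here. The array's Gapdh control probe sets, whose 3′ minus 5′ signal reflects the integrity of the RNA, gave log2 differences of 0.919, 0.914, 0.965 and 0.813 in HP rats, against 0.946, 0.975, 0.961 and 0.975 in control rats. Means were 0.903 ± 0.064 in HP and 0.964 ± 0.014 in control rats (SD, n = 4 each), and for beta-actin 2.07 ± 0.04 in HP and 2.01 ± 0.11 in control rats. Of the 9 hepatocyte markers named, 5 were measured, 2 with a higher and 3 with a lower mean in HP rats. They averaged -0.04 ± 0.07 in HP and 0.04 ± 0.03 in control rats. Rank products called Cps1, the first enzyme of the urea cycle, lower (difference -0.27). Hnf4a had a difference of -0.10 in the probe set used, whereas the study lists this gene as higher on the HP diet. Sinusoidal endothelium markers, 4 measured of 7 named, averaged 0.11, -0.01, 0.16 and 0.10 in HP rats, against 0.00, -0.14, -0.13 and -0.10 in control rats. All 4 had a higher mean in HP rats, and Kdr and Stab2 were called higher (differences 0.26 and 0.23). Kupffer cell markers, 10 measured of 12 (1 higher and 9 lower), averaged -0.05 ± 0.09 in HP and 0.05 ± 0.17 in control rats, with Cd5l called lower (difference -0.33). Stellate cell markers, 6 measured of 10 (all 6 higher), averaged 0.04 ± 0.05 in HP and -0.04 ± 0.12 in control rats, with 0 called, and Lrat and Col1a2 had the largest differences (0.14 and 0.11). Of the 2 erythroid markers named, only Hbb was measured, and it was called higher (difference 0.24), though the groups overlapped. None of 5 cholangiocyte markers was measured, and their means were 6.15 to 7.30. As background, rank products called 8.45% higher and 12.1% lower of all probe sets that spanned 0.05, and 43.5% of these had a higher mean. The part of RNA integrity and of cell make-up in the members' differences was not tested.

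Genes that work beside the complexes were counted in the same way, and no gene of these lists passed limma's adjusted threshold. The background of rank products for these lists was 8.45% higher and 12.1% lower among probe sets that spanned 0.05. Of the electron carriers outside the symbols used, Cyc1, the cytochrome c1 of complex III, and Etfa and Etfb, which bring electrons from fatty acid oxidation to ubiquinone, had differences of 0.08, 0.08 and 0.10, with 0 of 3 called by rank products. Of 42 assembly factors on the array 4 were measured, with a median of -0.02 and 0 called, and the differences of largest size were -0.14 for Ndufaf4 and -0.04 for Ndufaf3, both for complex I. The phosphate carrier Slc25a3 and the outer membrane channels Vdac1 and Vdac2 had differences of -0.00, -0.03 and -0.03. The citric acid cycle genes Cs, Dlst and Mdh2 had -0.05, 0.01 and -0.01, and none was called.

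Coenzyme Q genes had 5 measured of 12 on the array. Coq10b, which encodes a ubiquinone-binding protein needed for coenzyme Q to work in respiration, had log2 values of 8.64, 8.78, 8.79 and 8.29 in HP rats, against 9.31, 9.01, 9.00 and 9.38 in control rats. The highest HP value was under the lowest control value, and the difference was -0.55 ± 0.13 (adjusted p = 0.217 by limma; FDR 0.00144 for lower by rank products). The other 4 genes had differences of -0.09 to 0.02 and were not called.

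Among regulators of mitochondrial biogenesis 5 of 14 were measured. Polg, the mitochondrial DNA polymerase, had log2 values of 9.53, 9.63, 9.58 and 9.58 in HP rats, against 9.40, 9.42, 9.37 and 9.31 in control rats. The groups did not overlap, and the difference was 0.20 ± 0.05 (adjusted p = 0.217 by limma; FDR 0.0200 by rank products). The coactivator gene Ppargc1a had 7.41, 7.45, 7.94 and 7.09 in HP rats, against 7.57, 7.03, 7.02 and 7.13 in control rats, and its relative Ppargc1b had 7.06, 7.28, 8.08 and 7.78 in HP rats, against 7.60, 7.95, 7.87 and 7.94 in control rats. Rank products called Ppargc1a higher (FDR 0.0276) and Ppargc1b lower (FDR 0.0325), but both pairs of groups overlapped and limma gave adjusted p = 0.527 and 0.553.

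Other large complexes gave a view of how similar families moved. Of 34 measured cytosolic ribosomal protein genes 28 had a higher mean in HP rats, with a median of 0.03, and rank products called Rps24 higher (difference 0.15, FDR 0.0340). Of 21 measured mitochondrial ribosomal protein genes 8 were higher and 13 lower, with a median of -0.01, and Mrpl18 was called lower (difference -0.14, FDR 0.0497). Of 27 measured proteasome subunits 3 were higher and 24 lower, with a median of -0.08, and Psmc4 and Psmd7 were called lower (differences -0.24 and -0.33, FDR 0.0204 and 0.0088). For comparison, rank products called 8.45% higher and 12.1% lower of all probe sets that spanned 0.05, and 43.5% of these had a higher mean. The single calls are therefore not read as results about a family. The differences between families were not tested.

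**Figure D5:**
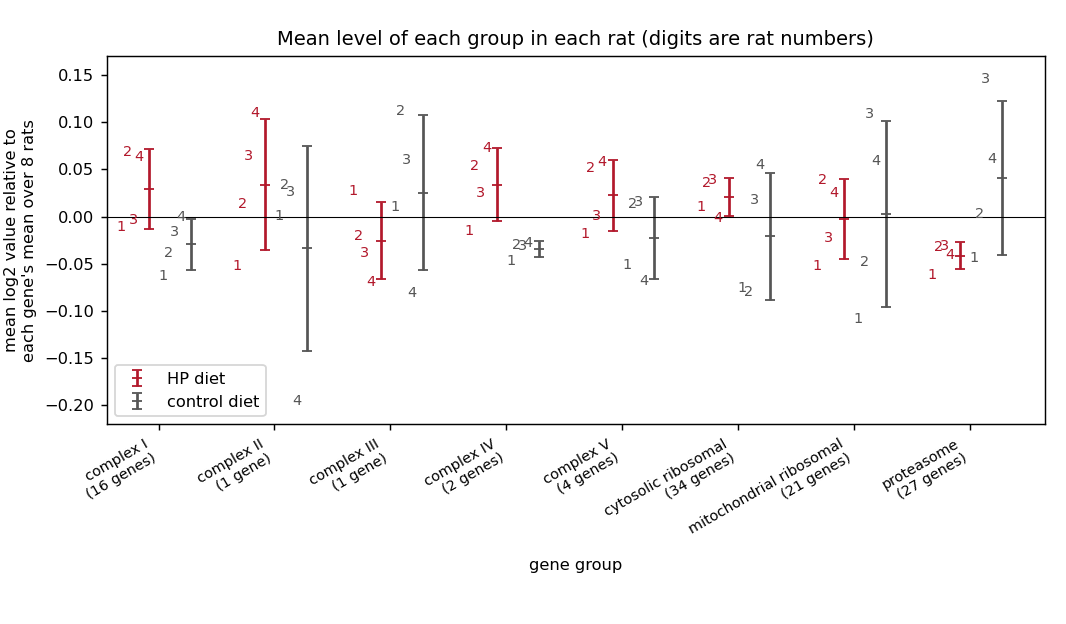
Mean log2 value of each complex and of 3 other families in each rat, as a deviation from the 8-rat mean of each gene; digits are rat numbers, HP diet left of control diet, with mean and SD. Only complex IV has every HP rat above every control rat, and control rat 4 lies lowest in complex II, at -0.20.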

How the data were processed

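Liver RNA was labelled with a 3′ IVT kit, and the authors summarised the Affymetrix arrays with FARMS in R 2.13.1 and deposited the log2 values. How arrays were normalized against each other is not given in the sources used, and nothing was added. FARMS holds a probe set without shared probe signal almost constant, so small spans carry little information. Genes were named from the array's annotation table, using probe sets with 1 symbol. Control probe sets (57) stayed out of limma.

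The diets were compared by limma 3.58.1 under R 4.3.3 (trend and robust empirical Bayes, two-sided, 4 against 4 rats). Rank products used all 16 differences between an HP and a control array and 1000 permutations in Python 3.11.15 with numpy 2.4.6. Both were tested on simulated data. The members and the 15 gene lists were chosen with earlier results of these data known.

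Named members are those called, those whose diets do not overlap, and per complex the 4 with the largest absolute differences and the 1 with the highest mean, besides the isoforms. In the other lists, the genes called by rank products are named or, if none, the 2 with the largest differences. Remaining members and other list genes were named after their values were seen. Promoters came from RefSeq (GRCr8).

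Alternatives were centring, quantile normalization, other span minimums, leaving out the dimmest 25%, gene means, plain empirical Bayes, the replicate number as a block and leaving out each rat. Another 4 permutation draws were added after seeing the data.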

Additional observations from a re-analysis of the deposited data

Results flagged for a closer look

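Among 60 sets of 4 rats checked for a single far value by Dixon's ratio of gap to range, 4 were picked out, and chance picks about 1 in 20. The Ndufs6 value of control rat 4 was 10.31, above the other control rats and still below every HP rat. The Sdhb value of control rat 4 was 11.34, below all other rats. The complex II average of the same rat, which rests on Sdhb alone, was -0.20. The complex IV average of control rat 1 was -0.0466, below the other 3 control rats, which were each at -0.03.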

How the results depend on the processing

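No alternative gave a member an adjusted p under 0.05 by limma (the lowest was 0.142). The 5 of 24 members higher at an unadjusted p under 0.05 by limma became 8 with centring. They became 2 with a span of at least 0.2, where Ndufs6 and Ndufa3 no longer counted as measured. They became 9 of 79 with no span filter and 3 with the replicate block. Probe sets higher at these 4 settings were 297 of 4155, 176 of 3676, 1315 of 31042 and 192 of 4155, against 223 of 4155 as reported. With a rat left out the 5 became 3 to 5 (3 without HP rat 2 or HP rat 4). The 6 members with no overlap became 2 at a span of 0.2, where Ndufs6, Ndufa3, Ndufa1 and Cox6c no longer counted as measured. They became 13 of 79 with no filter, where near-constant genes enter. With a rat left out they were 6 to 10 (10 without control rat 4), but leaving out a rat cannot lower this count. Shares over all probe sets at these settings are not given here. At a span of 0.2 only Atp5mg was left of complex V, so its median became that gene's own difference of 0.0885. With no filter the medians were 8.80e-05 over all 79 genes, 0.000117 for complex I, 8.40e-05 for complex IV and 8.61e-05 for complex V, since near-constant genes then enter.

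Rank products called 0 of the 3 members when only spanning probe sets were ranked, 0 without the dimmest 25%, 0 without any 1 HP rat and up to 4 without control rat 1. Ndufa11 and Ndufa9 remained called without any 1 control rat, and Ndufs6 was lost without control rat 2 or 3. In 4 other permutation draws, chosen after seeing the data, Ndufs6 stayed called.

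The sign of Ndufv1 and Ndufb10 turned to 0.018 and 0.016 with centring and to 0.0043 and 0.0067 with quantile normalization. With a rat left out, 8 members changed sign. Their ranges were -0.0386 to 0.0578 for Ndufv1, -0.0461 to 0.0371 for Ndufb10, -0.110 to 0.0244 for Ndufa8, -0.0257 to 0.0470 for Ndufb5, -0.0034 to 0.018 for Ndufv2, -0.00098 to 0.018 for Ndufv3, -0.0024 to 0.051 for Atp5f1a and -0.0207 to 0.0306 for Atp5f1b. In all, 22 of 240 alternative values of single members changed sign. The median of the coenzyme Q genes ran from -0.0715 to 0.0429. The cause of these shifts was not tested.

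Replicate numbers are shared between the diets only as numbers: deviations of same-numbered rats correlated at 0.479, 0.0308, -0.123 and -0.197, and 1 of 4 HP rats correlated best with its own number. With 4 arrays per diet, differences near 0.05 are of the size of their standard errors.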
